A study of Homo sapiens with 6 samples.

Results

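The mitochondrial carrier genes are the protein-coding genes of the SLC25 family, taken here by their symbols (SLC25A followed by a number) together with UCP2, UCP3, MTCH1 and MTCH2, which belong to the family under other names. The rule used names and gene type and no measured value, and it gave 52 of the 58676 listed genes. RNA sequencing was performed on 2D cultures of A549, an established human lung adenocarcinoma cell line, with 3 libraries of A549 Rec and 3 libraries of A549 MOCK. A549 Rec stably expressed a myc-tagged human recoverin cDNA delivered by a retroviral vector, and A549 MOCK carried the empty vector. The A549 Rec line was selected with puromycin, and both lines were cultured for 6 days in high-glucose DMEM with serum and methylcellulose per the labels. Each is 1 line, and no label says whether the 3 libraries of a line came from separate cultures, so p-values measure only the spread between these libraries. The comparison asks whether the carriers through which mitochondria exchange metabolites with the cytosol differ in RNA level when recoverin, a calcium-binding protein of photoreceptors, is expressed in a cancer cell in which it is normally not made.

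SLC25 carriers are small proteins of the inner mitochondrial membrane, each built from 3 repeats of a pair of membrane helices, and most exchange one solute of the matrix for another of the cytosol. The ADP/ATP carriers, also called adenine nucleotide translocases (ANT), bring ADP in and send ATP out, and the phosphate carrier supplies the other substrate of ATP synthase. Other members carry citrate, malate, amino acids, carnitine esters, nucleotides, cofactors or iron, and a few members sit in the outer membrane or in the peroxisome. They are made in the cytosol without a cleaved presequence in most cases, and TOM70, the small TIM chaperones and the TIM22 complex bring them into the inner membrane.

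The human genome holds 4 ADP/ATP carrier genes, and the stretch of coding sequence that spells the signature of this group, 3 arginines followed by 3 methionines, is shown because the isoform shares below depend on reads that can tell these genes apart. Capitals mark the 18 bases of the signature. Each stretch lies within 1 coding exon, is read 5′ to 3′ on the coding strand, and was taken from GRCh38: SLC25A4 (ANT1) at chr4:185145833-185145883 on the plus strand, SLC25A5 (ANT2) at chrX:119470447-119470497 on the plus strand, SLC25A6 (ANT3) at chrX:1387295-1387345 on the minus strand, and SLC25A31 (ANT4) at chr4:127768827-127768877 on the plus strand.
SLC25A4: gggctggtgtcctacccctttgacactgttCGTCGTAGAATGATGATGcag
SLC25A5: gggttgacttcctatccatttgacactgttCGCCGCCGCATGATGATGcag
SLC25A6: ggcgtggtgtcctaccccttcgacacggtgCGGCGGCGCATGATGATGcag
SLC25A31: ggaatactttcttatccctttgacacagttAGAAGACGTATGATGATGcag
The codons for methionine are the same in all 4, while the arginines are spelled differently in each. The 51 bases differ at 10 positions between SLC25A4 and SLC25A5 and at 15 positions between SLC25A6 and SLC25A31. Over the whole coding sequence, SLC25A4, SLC25A5 and SLC25A6 were 77.2% to 78.7% identical in bases, and SLC25A31 was 60.9% to 63.3% identical to the other three. No stretch of 100 bases within 1 exon of SLC25A4 or SLC25A5 was found a second time in the genome as an exact copy. Near copies with mismatches and reads across exon borders were not examined, so the search does not show that every read is placed on the right gene.

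Before the levels, 2 libraries have to be named. The share of TPM (transcripts per 1000000, the reads of a gene over its length, brought to the same sum in every library) taken by genes of the mitochondrial DNA was 34.5% in A549 MOCK replicate 3 and 26.9% in A549 Rec replicate 3, against 13.3% to 17.3% in the other 4 libraries. Since TPM adds up to a fixed total, a larger share of these genes leaves a smaller sum for all others in these 2 libraries. RCVRN was listed at 0 in all A549 MOCK libraries and at 322 to 339 TPM in A549 Rec, so the labels hold. The epithelial markers KRT8, KRT18 and CDH1 were high in every library, while EPCAM did not exceed 2.98 TPM and KRT19 did not exceed 0.325 TPM. Of the other marker lists, 1 of 5 fibroblast, 2 of 5 leukocyte and 0 of 4 endothelial genes had a mean TPM of at least 1. These were COL1A1 at 2.21 to 5.14 TPM, CD14 at 4.53 to 7.35 TPM and CD79A at 4.03 to 11.0 TPM. PTPRC did not exceed 0.0871 TPM, and CD3E, LST1 and COL1A2 were listed at 0 in every library. The recovered reads per library ranged from 17124049 to 21062143.

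The ADP/ATP carriers were the most abundant carrier RNAs, and nearly all of their signal came from SLC25A5, the isoform known from proliferating cells. SLC25A5 had 1653, 1555 and 979 TPM in A549 MOCK replicates 1 to 3, and 1569, 1616 and 1240 TPM in A549 Rec replicates 1 to 3. Replicate 3 was lowest in each line, and the groups overlapped. SLC25A4, the isoform known from heart and skeletal muscle, had 16.1, 16.8 and 12.0 TPM in A549 MOCK and 16.6, 17.2 and 14.6 TPM in A549 Rec. SLC25A4 was thus at a level near 1% of SLC25A5 in every library, with the same low replicate 3. SLC25A31, the isoform of the testis, was listed at 0 in 5 libraries and at 0.206 TPM in A549 Rec replicate 3, a value that stands for 2 reads.

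SLC25A6 was listed at 0 in all 6 libraries, and this zero is not a level. SLC25A6 lies at chrX:1386152-1392724 on the minus strand in the pseudoautosomal region, which the X and the Y chromosome share. In GRCh38 the 6573 bases of the gene are the same on both chromosomes, with 0 differing positions, and all 1058 windows of 100 bases in its exons are found at 2 places. Of the 15 protein-coding genes annotated on the short arm of both chromosomes, 13 were listed at 0 in all 6 libraries, and the highest TPM of any of them in any library was 0.111. VAMP7, which X and Y share on the long arm, was listed at 0.925 to 21.2 TPM, so the zeros do not hold for every shared gene. How reads that map to more than one place were counted is not given in the sources used here. The share of SLC25A6 among the ADP/ATP carriers was therefore not measured, and the shares below are shares of the signal that the files hold.

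**Figure D1:**
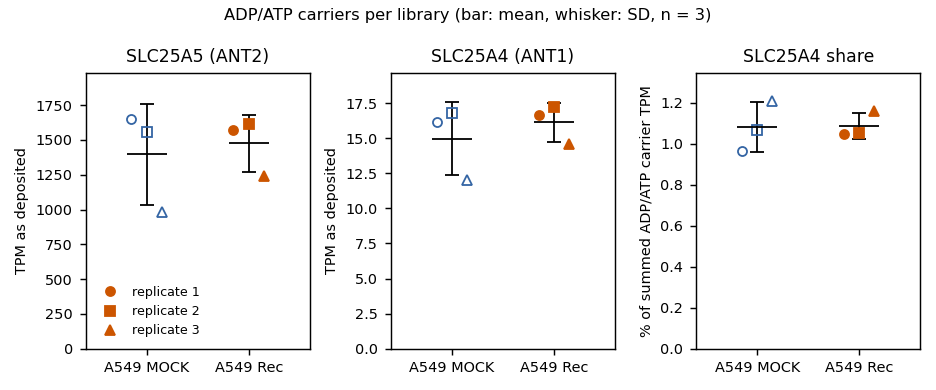
TPM of SLC25A5 and SLC25A4 and the share of SLC25A4 in the summed TPM of the ADP/ATP carriers (vertical axes, in TPM and percent) for each library of A549 MOCK (open blue) and A549 Rec (filled orange), with the marker shape giving the replicate number, the bar the mean and the whisker the SD of 3 libraries. Replicate 3 has the lowest TPM of both genes and the highest share of SLC25A4 in each line.

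Within that signal, SLC25A5 took 99.0%, 98.9% and 98.8% of the TPM in replicates 1 to 3 of A549 MOCK, and the A549 Rec libraries had the same rounded values. SLC25A4 took 0.968%, 1.07% and 1.21% of the TPM in A549 MOCK, and its share in A549 Rec was 1.05%, 1.05% and 1.16%. The mean share of SLC25A4 was 1.08% ± 0.12 (SD, n = 3) in A549 MOCK and 1.09% ± 0.064 (SD, n = 3) in A549 Rec, a difference of 0.0059 percentage points that lay far inside the spread between libraries (exact permutation test, two-sided, p = 1.0; adjusted over 12 shares, p = 1.0). With 3 libraries against 3, this test cannot give a p below 0.1. A share is free of the scaling of a library, but the share of SLC25A4 was still highest in replicate 3 of each line. The TPM depends on the gene length used for it, and the share of SLC25A4 was 0.925% to 1.16% when the recovered reads were divided by the length of the canonical transcript instead. The 9 annotated SLC25A5 pseudogenes together reached at most 2.26 TPM in any library.

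SLC25A5 made up 46.3% of the TPM of all 52 carriers, summed over the 6 libraries. The 8 carriers with the highest mean TPM held 79.4% of this sum. The sum lacks SLC25A6, which was not measured. After SLC25A5 came SLC25A1, which exports citrate for fatty acid synthesis, with a mean of 193 TPM, then SLC25A3, the phosphate carrier, with 189 TPM, and SLC25A39, a glutathione carrier, with 170 TPM. The outer membrane proteins MTCH2 and MTCH1 had means of 148 and 122 TPM. SLC25A11, the oxoglutarate carrier, had 110 TPM, and SLC25A13, the aspartate/glutamate carrier also known as citrin, had 96.4 TPM. The lowest library of SLC25A5 (979 TPM) lay far above the highest of SLC25A1 (222 TPM), whereas the ranges of SLC25A1, SLC25A3 and SLC25A39 overlapped over the libraries. In all, 7 carriers had a mean over 100 TPM, 24 had a mean of 10 to 100 TPM, 12 had a mean of 1 to 10 TPM and 9 had a mean below 1 TPM. The last group includes SLC25A6, whose zero is not a level.

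**Figure D2:**
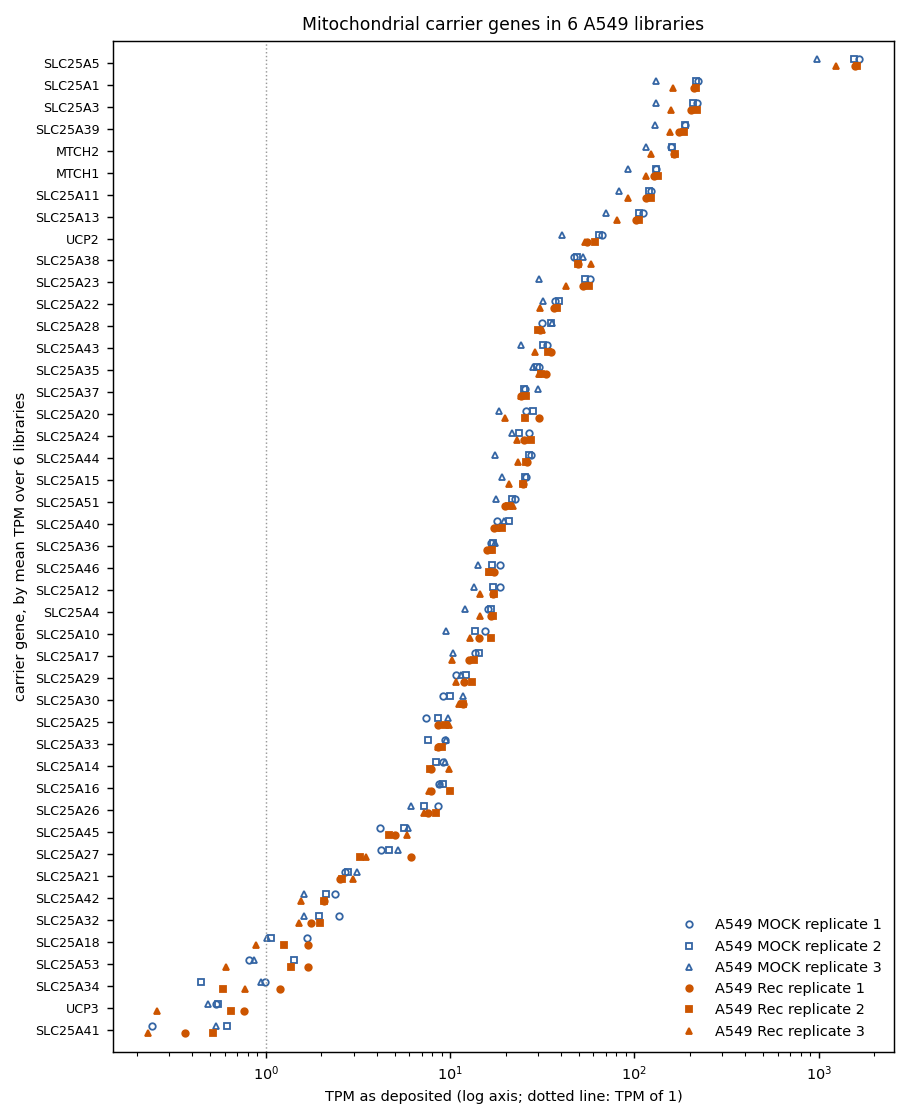
TPM as deposited (horizontal log axis) of 45 carriers with a mean over 0.1 TPM, 1 row a gene in order of the mean, with A549 MOCK as open blue and A549 Rec as filled orange markers and the marker shape giving the replicate number. The 2 colours lie on top of each other in most rows, and the triangles of replicate 3 are the lowest markers for most carriers above 100 TPM.

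Of the 52 carriers, 43 passed the filter, which asked for 1 TPM or more in 3 or more of the 6 libraries. SLC25A53 was just inside it, with 0.812, 1.42 and 0.859 TPM in A549 MOCK and 1.70, 1.38 and 0.610 TPM in A549 Rec. SLC25A34 was just outside it, with 0.994, 0.445 and 0.948 TPM in A549 MOCK and 1.19, 0.589 and 0.772 TPM in A549 Rec. Neither of these orphan carriers separates the lines. UCP3, the uncoupling protein of skeletal muscle, had 0.258 to 0.761 TPM, and SLC25A41 had 22 reads over all libraries. The other 6 carriers below the filter had 3 reads or fewer in each library. They were SLC25A2, an ornithine carrier, SLC25A47, SLC25A52, SLC25A31, SLC25A48 and SLC25A6, of which only the last 2 were at 0 throughout. For SLC25A48, a count of 0 allows up to 3 reads in a library, and such floors cover counting error only.

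No carrier passed the test between A549 Rec and A549 MOCK. With limma on log2(TPM + 1) over 17408 tested genes, 0 of 43 carriers combined an adjusted p (Benjamini-Hochberg) under 0.05 with a change of 2-fold or more, and the background was 0.00574% of all tested genes, a single gene, which was RCVRN. The smallest adjusted p of a carrier was 0.9997 with limma. At an unadjusted p under 0.05 the count was also 0 of 43, against 2.06% of all tested genes, and limma on the recovered reads with voom weights gave 0 carriers at either threshold. The median log2 difference (A549 Rec minus A549 MOCK) of the 43 carriers was 0.033, and that of all tested genes was 0.019. The difference was above 0 for 29 of 43 carriers, against 56.6% of all tested genes.

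The intervals bound how large a difference these libraries could have hidden. The 95% intervals of the log2 difference lay between -0.66 and 0.76 over all 43 carriers, so that each lay within a 2-fold change of TPM + 1 in either direction. For carriers near 1 TPM, such as SLC25A53 and SLC25A18, the same bounds are wider as folds of TPM itself. The interval of SLC25A5 corresponds to a fold of 0.715 to 1.62 in TPM + 1, and that of SLC25A4 to a fold of 0.847 to 1.38. A p that misses the threshold does not show that the levels are equal, and the sign of most of the small differences depends on A549 MOCK replicate 3. Without that library, the median over the carriers was -0.079 and 11 of 43 lay above 0. SLC25A30 was then the 1 carrier with an unadjusted p under 0.05 in limma's fit over all genes, with a log2 difference of 0.25 and an unadjusted limma p of 0.0436. The smallest adjusted p of any carrier in any setting tried was 0.939 with limma. With TPM rescaled after removal of the genes of the mitochondrial DNA, the median was -0.004 and 22 of 44 tested carriers lay above 0.

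**Figure D3:**
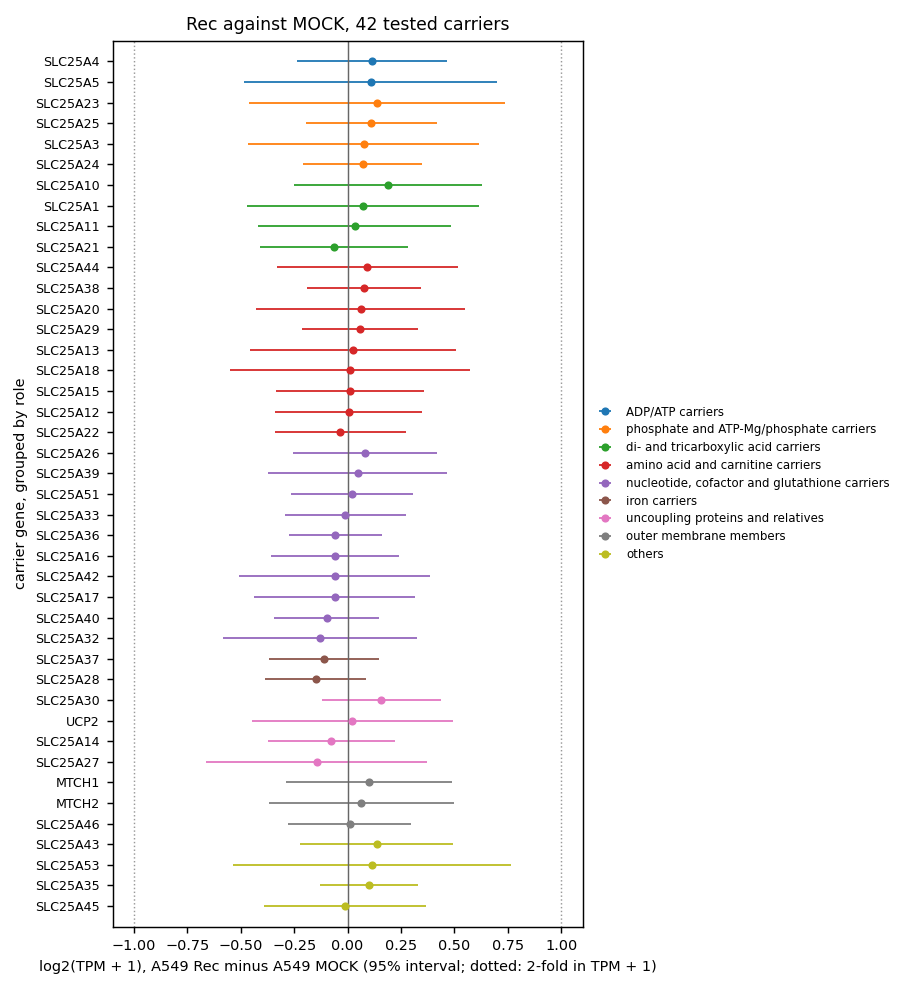
Difference of log2(TPM + 1) between A549 Rec and A549 MOCK (horizontal axis) for 42 of the 43 tested carriers, grouped and coloured by role, with points for the limma estimate and bars for its 95% interval. All 42 bars cross 0 and none reaches the dotted lines at a 2-fold change of TPM + 1.

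Among the carriers that feed ATP synthesis, the log2 difference was 0.11 ± 0.25 (SE) for SLC25A5, 0.11 ± 0.15 (SE) for SLC25A4 and 0.075 ± 0.23 (SE) for SLC25A3. The sum over the ADP/ATP carriers was 1410 ± 367 TPM (SD, n = 3) in A549 MOCK and 1491 ± 206 TPM (SD, n = 3) in A549 Rec, a difference smaller than the spread between libraries (exact permutation test, two-sided, p = 0.8). SLC25A3 had 219, 208 and 131 TPM in A549 MOCK and 203, 218 and 158 TPM in A549 Rec, and the pattern over libraries was that of SLC25A5. The ATP-Mg/phosphate carriers SLC25A23, SLC25A24 and SLC25A25, which adjust the adenine nucleotide pool of the matrix and are regulated by calcium, had log2 differences of 0.14, 0.070 and 0.11. SLC25A24 took 30.4% ± 4.1 (SD, n = 3) of the summed TPM of this group in A549 MOCK and 29.5% ± 0.91 (SD, n = 3) in A549 Rec. In the exons of SLC25A23, 11.5% of the 100-base windows are found a second time in the genome, so part of its reads could be placed elsewhere.

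The carriers of di- and tricarboxylic acids link the citric acid cycle with the cytosol. SLC25A1 had 222, 217 and 132 TPM in A549 MOCK and 210, 216 and 163 TPM in A549 Rec, a log2 difference of 0.074 ± 0.23 (SE). SLC25A10, the dicarboxylate carrier, had 15.5, 13.6 and 9.52 TPM in A549 MOCK and 14.4, 16.6 and 12.8 TPM in A549 Rec. Its log2 difference of 0.19 ± 0.19 (SE) was the highest of all tested carriers and had an unadjusted limma p of 0.348 (adjusted p 0.9997). Without A549 MOCK replicate 3 the difference was 0.0016, and without A549 MOCK replicate 1 it was 0.32. SLC25A11, which with the aspartate/glutamate carriers runs the malate-aspartate shuttle, had a log2 difference of 0.033 ± 0.19 (SE). SLC25A21, the oxodicarboxylate carrier, was low, at 2.54 to 3.13 TPM.

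Of the paired aspartate/glutamate carriers, SLC25A13 exceeded SLC25A12 (aralar) in each library. SLC25A13 had 112, 106 and 70.3 TPM in A549 MOCK and 103, 106 and 81.0 TPM in A549 Rec, while SLC25A12 had 13.4 to 18.6 TPM over the 6 libraries. The share of SLC25A12 in the pair was 14.7% ± 1.2 (SD, n = 3) in A549 MOCK and 14.5% ± 0.64 (SD, n = 3) in A549 Rec (exact permutation test, two-sided, p = 0.9). The glutamate carrier SLC25A22 likewise took 95.6% to 97.3% of its pair with SLC25A18. The other tested amino acid and carnitine carriers had mean levels of 11.7 TPM for SLC25A29, a carrier of basic amino acids, to 51.0 TPM for SLC25A38, a glycine carrier needed for heme synthesis, and their log2 differences did not exceed 0.092 in size.

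The carriers of nucleotides, cofactors and glutathione were the role with most tested members, 11, of which 4 had a log2 difference above 0 and 7 below 0. Of the glutathione carriers, SLC25A39 had 188, 189 and 129 TPM in A549 MOCK and 174, 186 and 156 TPM in A549 Rec, and its partner SLC25A40 had 17.2 to 20.9 TPM. SLC25A39 took 89.4% ± 2.3 (SD, n = 3) of the pair in A549 MOCK and 90.5% ± 0.70 (SD, n = 3) in A549 Rec (exact permutation test, two-sided, p = 0.7). SLC25A40 and SLC25A32, a folate carrier, had log2 differences of -0.098 and -0.13 with unadjusted limma p of 0.379 and 0.518. Of the pyrimidine nucleotide carriers, SLC25A33 was below SLC25A36 in each library. SLC25A33 took 33.9% ± 2.9 (SD, n = 3) of the pair in A549 MOCK and 34.7% ± 0.38 (SD, n = 3) in A549 Rec. Per kb of the canonical transcript, its share was 19.6% to 23.6% over the libraries. SLC25A16 took 78.6% to 84.4% of its pair with SLC25A42, the coenzyme A carrier.

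The NAD carriers are a pair of near-identical genes. SLC25A51 and SLC25A52 have 97.6% identical coding bases, and 12.6% of the 100-base windows of SLC25A52 and 6.41% of those of SLC25A51 are found more than once in the genome, so part of their reads could be placed elsewhere. SLC25A51 had 17.8 to 22.5 TPM, and SLC25A52 was listed at 0 in 5 libraries and had 2 reads in A549 Rec replicate 2. The share of SLC25A51 was thus 98.8% to 100%, with the low value resting on those 2 reads.

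The iron carriers were the role with the lowest median difference, and they hold the carrier with the smallest p. SLC25A28 (mitoferrin-2), which brings iron into mitochondria of many tissues, had 31.6, 35.2 and 35.9 TPM in A549 MOCK and 30.8, 29.8 and 31.5 TPM in A549 Rec. On TPM as deposited, all A549 MOCK libraries were above all A549 Rec libraries. The margin was small, with 31.6 TPM as the lowest of the former and 31.5 TPM as the highest of the latter. The log2 difference was -0.15 ± 0.10 (SE), with an unadjusted limma p of 0.177 and an adjusted p of 0.9997. SLC25A28 was the 1 of 43 carriers whose groups did not overlap with A549 Rec lower, against 2.69% of all tested genes, and 0 of 43 carriers did so with A549 Rec higher, against 2.47%. After rescaling without the genes of the mitochondrial DNA, the groups of SLC25A28 overlapped. A549 MOCK then had 36.5, 41.7 and 54.9 TPM, and A549 Rec had 37.2, 34.4 and 43.1 TPM. SLC25A37 (mitoferrin-1), known from the erythroid lineage, had 25.5, 25.3 and 29.9 TPM in A549 MOCK and 24.2, 26.0 and 24.2 TPM in A549 Rec. Its log2 difference was -0.11 ± 0.11 (SE), and A549 MOCK replicate 3 was its highest library, as it was for SLC25A28. The share of SLC25A28 in the pair was 56.0% ± 1.9 (SD, n = 3) in A549 MOCK and 55.3% ± 1.6 (SD, n = 3) in A549 Rec, so the balance of the mitoferrins did not differ beyond the spread.

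UCP2 was the main uncoupling protein, a member known to carry metabolites such as malate and aspartate,, at 67.0, 64.5 and 40.4 TPM in A549 MOCK and 55.6, 61.3 and 53.8 TPM in A549 Rec. It took 98.7% to 99.5% of its pair with UCP3. SLC25A30 had 9.20, 9.95 and 11.7 TPM in A549 MOCK and 11.8, 11.8 and 11.1 TPM in A549 Rec, a log2 difference of 0.16 ± 0.12 (SE) with an unadjusted limma p of 0.224. Replicate 3 of A549 MOCK alone overlapped with A549 Rec. The relatives SLC25A14 and SLC25A27, named for their expression in brain, had log2 differences of -0.076 and -0.14.

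MTCH1 and MTCH2 are outer membrane members of the family, and MTCH2 is known as an insertase for outer membrane proteins. MTCH2 had 157, 160 and 116 TPM in A549 MOCK and 164, 166 and 123 TPM in A549 Rec, higher in A549 Rec in all 3 same-numbered pairs, by a log2 difference of 0.065 ± 0.18 (SE). MTCH1 had 131, 131 and 92.7 TPM in A549 MOCK and 127, 134 and 115 TPM in A549 Rec, and took 45.0% ± 0.53 (SD, n = 3) of the pair in A549 MOCK and 45.6% ± 2.4 (SD, n = 3) in A549 Rec. Among the members with no role assigned here, SLC25A43 and SLC25A35 were higher in A549 Rec in all 3 pairs. SLC25A43 had a log2 difference of 0.14 ± 0.15 (SE). SLC25A35 had 30.5, 29.8 and 28.1 TPM in A549 MOCK and 33.3, 31.2 and 30.4 TPM in A549 Rec. Its groups overlapped by a small margin, and its log2 difference of 0.099 ± 0.097 (SE) had an unadjusted limma p of 0.339. Over the carriers, 6 of 43 were higher in A549 Rec in all 3 same-numbered pairs, against 13.1% of all tested genes, and 7 of 43 were lower, against 9.66%. No label says that a shared number marks a pair.

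The order of carriers depends on the length by which reads are divided. The gene length behind the TPM was, at the median, 1.39 times the length of the canonical transcript, but it was 7.99 times for MTCH1 (15630 against 1955 bases) and 11.5 times for SLC25A26, the S-adenosylmethionine carrier (23400 against 2035 bases). Per kb of the canonical transcript, MTCH1 moved from rank 6 to rank 2 among the carriers and SLC25A26 from rank 36 to rank 10. SLC25A5 was first on both scales, with SLC25A6 not measured on either. On the same scale MTCH1 took 84.4% to 86.7% of its pair with MTCH2, where the share in TPM was 43.7% to 48.3%, so the order of these outer membrane members turns with the length used. Over the 6 libraries, 60185 reads were counted for MTCH1, 67945 for SLC25A5 and 2381 for SLC25A4. The length also sets which carriers reach 1 TPM and how far the added 1 TPM shrinks a difference. With 0.1 TPM added instead, the log2 difference of SLC25A32 went from -0.13 to -0.19.

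The spans of 19 of the 52 carriers overlap another gene with a mean TPM of at least 1. These include SLC25A5 (SLC25A5-AS1), SLC25A11 (RNF167), SLC25A12 (HAT1 and METAP1D), SLC25A23 (CRB3), SLC25A30 (SLC25A30-AS1 and TPT1-AS1) and SLC25A35 (RANGRF), all with the other gene on the opposite strand. For 2 other carriers, SLC25A29 and SLC25A2, an overlapping gene lies on the same strand. The strand setting of the counting is not given in the sources used here, and whether counted reads of any of these carriers are shared was not tested.

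**Figure D4:**
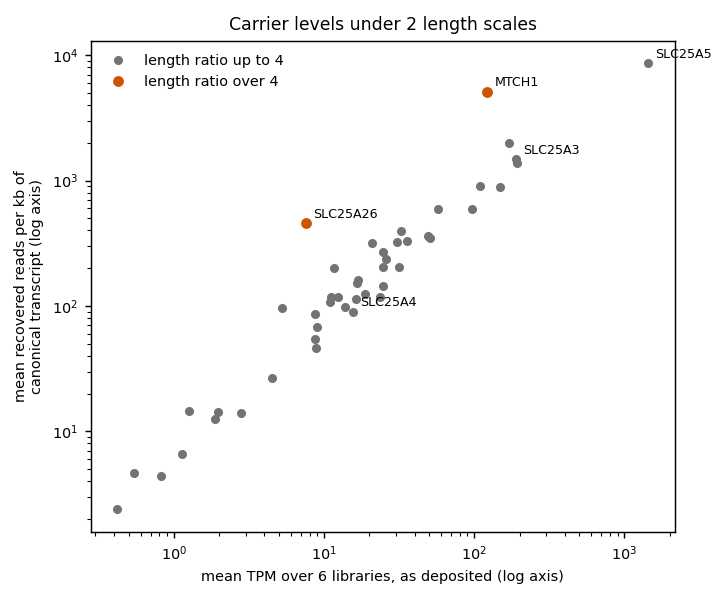
Mean TPM as deposited (horizontal log axis) against the mean recovered reads per kb of the canonical transcript (vertical log axis) for the 46 carriers with a mean over 0.1 TPM. MTCH1 and SLC25A26 (orange), whose gene length behind the TPM exceeds the transcript by more than 4 times, stand above the other points.

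Between the lines, with 3 libraries each, the median size of the log2 difference of the carriers was 0.07. The deviations of replicate 3 below are signed and set 1 library against the mean of 2. Their sizes are therefore not directly comparable with that value. Replicate 3 was below the mean of replicates 1 and 2, on the log2(TPM + 1) scale, in both lines for 29 of 43 tested carriers, and above it in both for 7. The deviation had a median of -0.30 over the carriers for A549 MOCK and of -0.20 for A549 Rec. The 3 lowest deviations in A549 MOCK were those of SLC25A23 (-0.87), SLC25A1 (-0.73) and SLC25A5 (-0.71), and the same carriers had -0.36, -0.38 and -0.36 in A549 Rec. SLC25A38 went the other way, with 0.13 and 0.23. Rescaled without the genes of the mitochondrial DNA, the medians were -0.028 in A549 MOCK and -0.002 in A549 Rec, with 18 carriers below 0 and 16 above 0 in both lines. SLC25A5 then still deviated by -0.33 and -0.15, and SLC25A28 by 0.48 and 0.26. All carriers together had 3476, 3353 and 2293 TPM in A549 MOCK and 3320, 3433 and 2737 TPM in A549 Rec. After rescaling, the sums were 4022, 3976 and 3503 TPM for A549 MOCK and 4015, 3961 and 3746 TPM for A549 Rec. The unscaled sums of the lines differed by less than the spread between libraries (exact permutation test, two-sided, p = 0.9).

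**Figure D5:**
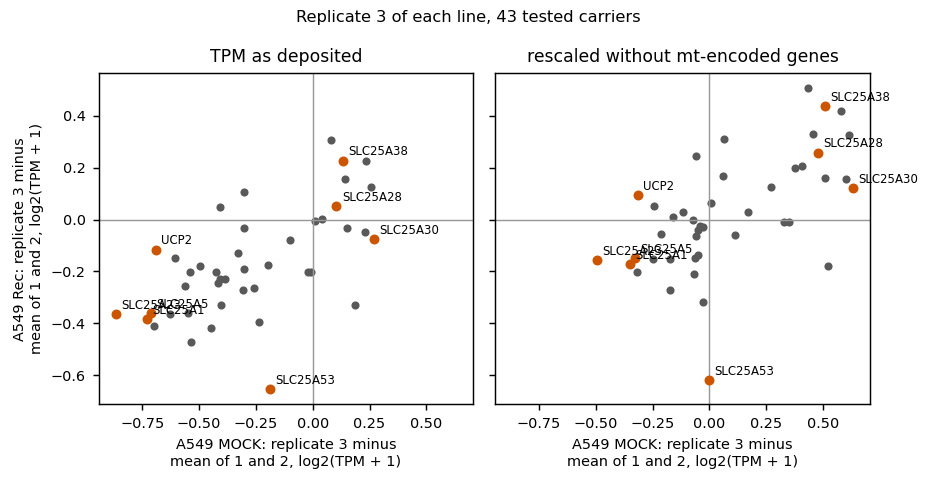
Deviation of replicate 3 from the mean of replicates 1 and 2 on the log2(TPM + 1) scale in A549 MOCK (horizontal axis) and A549 Rec (vertical axis) for the 43 tested carriers, with TPM as deposited on the left and TPM rescaled without mitochondrially encoded genes on the right. On the left most points lie at the lower left, with medians of -0.30 and -0.20, and on the right the points lie around 0 while SLC25A5 stays below and SLC25A28 above it.

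The genes that import carriers and the other transporters of mitochondria had no call either. Of 13 genes of the import route, 12 were tested, 0 were called and 0 had an unadjusted p under 0.05, with a median log2 difference of -0.013. TIMM9, a small TIM chaperone, had the smallest p of the list, with a log2 difference of -0.10 (limma, unadjusted p = 0.377), followed by TIMM10B with -0.087 (limma, unadjusted p = 0.430). Of 24 porins and other transporters, 23 were tested, 0 were called and 0 had an unadjusted p under 0.05, with a median log2 difference of 0.045. SFXN5, a sideroflexin, was higher in A549 Rec without overlap, at 8.49, 7.91 and 6.56 TPM in A549 MOCK and 9.19, 8.72 and 8.63 TPM in A549 Rec, 1 of 23 genes against 2.47% of all tested genes (limma, unadjusted p = 0.161, adjusted p = 0.9997). CPT2, which remakes acyl-CoA from the carnitine esters that SLC25A20 brings in, had a log2 difference of 0.16 (limma, unadjusted p = 0.288). VDAC1, the main porin of the outer membrane, stood at 166 to 310 TPM over the libraries and VDAC2 at 163 to 250 TPM, and both were above SLC25A1 and SLC25A3 in each of the 6 libraries.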

How the data were processed

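RNA from 2D cultures of A549 MOCK and A549 Rec (3 libraries each, groups and replicate numbers from the labels) was analysed. Per the study's methods and the submitters' processing notes, the authors checked reads with FastQC 0.11.7, trimmed them with Trimmomatic 0.38, mapped them to GRCh38 with HISAT2 2.1.0 and counted them per gene with featureCounts 1.6.3. The processing notes name GRCm38 as the build, whereas the gene IDs and coordinates of the file are human and lie on GRCh38. Culture lasted 6 days per the labels, and the study's methods place the harvest at Day 7. For sequencing, the study's methods name NovaSeq and GenoLab M and do not say which library ran on which. The authors deposited TPM for 58676 genes. Strand setting, counting of multi-mapping reads and annotation release are not given in the sources used here. Each column was matched to a sample.

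Reads were recovered from the TPM as whole numbers (within 0.01) of a step per library and gene length, for 29899 of 29900 genes above 0. Since the length was chosen to make values whole, this does not test the recovery, and 14534 genes had the exon length of GENCODE v44. Recovered reads ranged from 17124049 to 21062143 per library. PCR copies were not told apart.

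The test was limma 3.58.1 in R 4.3.3 (trend, two-sided) on log2(TPM + 1) for the 17408 genes that reached 1 TPM in 3 or more of the 6 libraries, with Benjamini-Hochberg adjustment over all of them. A call needed a change of 2-fold or more and an adjusted p under 0.05. Differences on this scale understate the change of low genes. Sums and shares were compared with the exact permutation test. The limma step and the recovery were tested on simulated data. After the group means were subtracted, same-numbered libraries correlated over 17408 genes with 0.115, 0.164 and 0.342 for replicates 1, 2 and 3. This hint of pairs comes from the data, and only replicate 3 stood out. The sample titles also set replicate 3 apart, since they carry no number in either line while the other titles end in 1 or 2. What this difference in titles stands for is not given in the sources used here. A549 MOCK replicate 1 correlated somewhat more with A549 Rec replicate 2 (0.128), so the pairing of replicates 1 and 2 is not settled. The fit with the replicate number as a block was an alternative.

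One tested carrier is counted among the 43 but is not reported here by name or drawn in the plots by gene. The carriers and all lists were chosen with earlier results of these data known. Named in any case were SLC25A4, SLC25A5, SLC25A6, SLC25A31, SLC25A3, SLC25A1, SLC25A10 to SLC25A13, UCP2, MTCH1 and MTCH2. To these the rule added the 8 carriers with the highest mean TPM, the 4 with the smallest p in each direction, the pairs, carriers at 0, those at the filter, and in each partner list the 2 genes with the smallest p. VDAC1, VDAC2, SLC25A26, SLC25A38 and the other carriers named by role or length were chosen after their values were seen. Other settings were a pseudocount of 0.1, no filter, quantile normalization, rescaling without mitochondrially encoded genes, limma without trend, no fold change threshold, the block, and leaving out each library. Added after seeing the data were limma on recovered reads with voom weights, also with the block, and levels per kb of the canonical transcript. Sequences, window copies and canonical transcripts came from hg38 and GENCODE v44.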

Additional observations from a re-analysis of the deposited data

How the results depend on the processing

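No carrier was called in any setting, and at an unadjusted p under 0.05 the count of carriers was 0 in all of them except without A549 MOCK replicate 3, where it was 1 (range over left-out libraries 0 to 1). The replicate block called 0 carriers, and in this balanced design it cannot change their median log2 difference of 0.033. It raised the share of all tested genes with an unadjusted limma p under 0.05 from 2.06% to 4.11%. Of 266 log2 differences of 19 named carriers in other settings, 235 kept their sign and 31 did not, 22 of these with a library left out, and the cause was not tested. Limma without trend, the block on log2(TPM + 1) and the missing filter cannot change the log2 difference of a carrier. The signs kept in these settings therefore say nothing about stability. The sign of 11 of the 19 carriers turned without A549 MOCK replicate 3. Over the left-out libraries the log2 difference ranged from -0.030 to 0.20 for SLC25A4, -0.13 to 0.25 for SLC25A5, -0.16 to 0.21 for SLC25A3, -0.17 to 0.20 for SLC25A1, -0.15 to 0.15 for SLC25A11, -0.12 to 0.10 for SLC25A12, -0.18 to 0.15 for SLC25A13, -0.21 to 0.15 for UCP2, -0.067 to 0.18 for MTCH1, -0.085 to 0.21 for MTCH2 and -0.13 to 0.14 for SLC25A39. SLC25A10 kept its sign, with 0.0016 to 0.32. Quantile normalization gave -0.0057 for SLC25A11 and -0.010 for SLC25A13. Rescaling without mitochondrially encoded genes gave -0.011 for SLC25A11, -0.036 for SLC25A12, -0.019 for SLC25A13 and -0.021 for UCP2. Voom weights gave -0.015 for SLC25A12, and with the replicate block -0.016 for SLC25A12 and -0.010 for UCP2.

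For the sums, Rec minus MOCK ranged over the left-out libraries from -251 to 340 TPM for all carriers and from -129 to 210 TPM for the ADP/ATP carriers. For the shares, in percentage points, it ranged from -0.051 to 0.070 for SLC25A4, -0.076 to 0.046 for SLC25A5, -0.61 to 0.48 for SLC25A12, -1.41 to 0.40 for SLC25A28, -0.89 to 1.73 for SLC25A33, -0.21 to 2.00 for SLC25A39, -0.58 to 0.36 for SLC25A22, -1.15 to 1.80 for SLC25A16, -2.43 to 1.50 for SLC25A24, -0.80 to 1.53 for MTCH1 and -0.26 to 0.18 for UCP2. On the log2 ratio of UCP2 to UCP3 the difference was 0.047 where the share gave -0.016. None of the 12 shares reached the smallest p that 3 libraries against 3 allow (0.1, exact permutation test), and a sign flip over 3 pairs cannot go below 0.25. No comparison was run for the share of SLC25A6, which was listed at 0. For 6 of 52 carriers no library held more than 3 reads.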
